A study of Arabidopsis thaliana with 18 samples.

Results

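The comparison described here asks whether roots that carry an extra, constitutively driven MYB72 answer a beneficial bacterium differently from wild-type roots. For each transcript the change with Pseudomonas WCS417 in oxMYB72 was taken minus the change in Col-0, and this value is called the response difference. It uses 12 of the 18 arrays of the series, 3 in each of 4 groups: untreated and colonized Col-0, the wild-type accession, and untreated and colonized oxMYB72. The oxMYB72 plants carry 35S:FLAG-MYB72, a tagged MYB72 behind a viral promoter active in most plant cells, in the myb72-2 mutant background, so they differ from Col-0 in the mutation as well as in the transgene. How many independent transgenic lines were used is not given in the labels. All plants were seedlings 19 days old, colonized ones having received WCS417 2 days before harvest, and the RNA came from whole roots. The untreated and colonized myb72-2 groups (6 arrays) enter the estimate of the spread and are given beside the main values.

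MYB72 is a root transcription factor that is switched on by iron shortage and by WCS417. It is needed for the systemic resistance that this rhizobacterium induces in leaves. Among the genes tied to it are those for iron-mobilizing coumarins, phenolic compounds that Arabidopsis roots secrete, and BGLU42, a beta-glucosidase that takes part in their release. Bacterial surface molecules also start a general immune response in roots, with small secreted peptides, berberine bridge enzyme-like oxidases and cell wall proteins among its typical transcripts.

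All levels below are RMA values on the log2 scale, where 1 unit is a doubling, and they are compared between arrays for the same probe set, never between probe sets. Errors after ± are standard errors of the limma model. Replicate arrays correlated between 0.9926 and 0.9977 in the 4 groups. No probe set bore the name MYB72 in the annotation used, so the transgene could not be checked by name. A probe set with no named gene that was far higher in oxMYB72 is given below with the opposite effects. Of the root cell type markers only the root hair expansins EXPA7 and EXPA18 were found by name. They averaged 8.22 to 8.58 per array in untreated and 8.84 to 9.02 in colonized Col-0, against 7.64 to 8.25 and 8.51 to 8.72 in oxMYB72. LHCB4.1 and LHCB4.2, light-harvesting genes of green tissue, were not absent and averaged 7.62 to 8.03 and 6.64 to 6.78 in Col-0, against 7.31 to 7.57 and 6.44 to 6.74 in oxMYB72. Colonized root hair levels and untreated green tissue levels thus did not overlap between the genotypes, and their part in the results was not tested. The 3′ minus 5′ signal of actin, a sign of RNA integrity, averaged 1.21 in untreated and 1.3 in colonized Col-0, and 1.19 and 1.33 in oxMYB72; its part in the results was not tested. Labels call the replicates biological but do not tie them to separate plantings. In whole roots, fewer cells of a type and less RNA per cell cannot be told apart.

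Most of the called response differences were negative, that is, the level after WCS417 rose less or fell more in oxMYB72 than in Col-0. Of 22746 probe sets tested, limma called 398 (1.75%), of which 319 had a negative response difference (1.4%) and 79 a positive one (0.347%). The median over all probe sets was 0.04, and more probe sets were called for a WCS417 effect in oxMYB72 (4391, 19.3%) than in Col-0 (3491, 15.3%). At an unadjusted p under 0.05 there were 2024. Differences of at least 1 on the log2 scale numbered 183 in the negative and 24 in the positive direction, and 60 against 1 reached 2. Exactly 1 gene was named for 197 of the 398, several genes for 7 and none for 194. The most negative difference of all, -6.19, belonged to a probe set with no named gene, so the genes named below do not include it. The 319 included 239 that rose with WCS417 in Col-0, where 6.38% of all probe sets rose. Because the response difference subtracts that Col-0 effect on the same arrays, a high share is partly built in. The counts by effect therefore describe the calls and do not test them. Of the 319, 147 rose in Col-0 while their effect in oxMYB72 was not called, with median effects of 1.15 and -0.04. Another 35 rose in both genotypes but less in oxMYB72, with medians of 2.93 and 0.88. A further 57 rose in Col-0 and fell in oxMYB72. A negative difference was not always a weaker response: 68 had no call in Col-0 and fell in oxMYB72, with medians of 0.1 and -0.78, and 10 fell in both genotypes but more in oxMYB72, with medians of -0.45 and -1.19. Among the 79, 41 rose in oxMYB72 with no call in Col-0, 14 rose in both but more in oxMYB72, 16 fell in Col-0 with no call in oxMYB72, 5 fell in both but less in oxMYB72 and 3 fell in Col-0 and rose in oxMYB72. The number of positive calls depended on single arrays: 34 without oxMYB72 control replicate 2 and 52 without its replicate 1, 44 and 52 without Col-0 control replicates 2 and 1, and 51 and 52 without Col-0 WCS417 replicates 2 and 3.

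**Figure D1:**
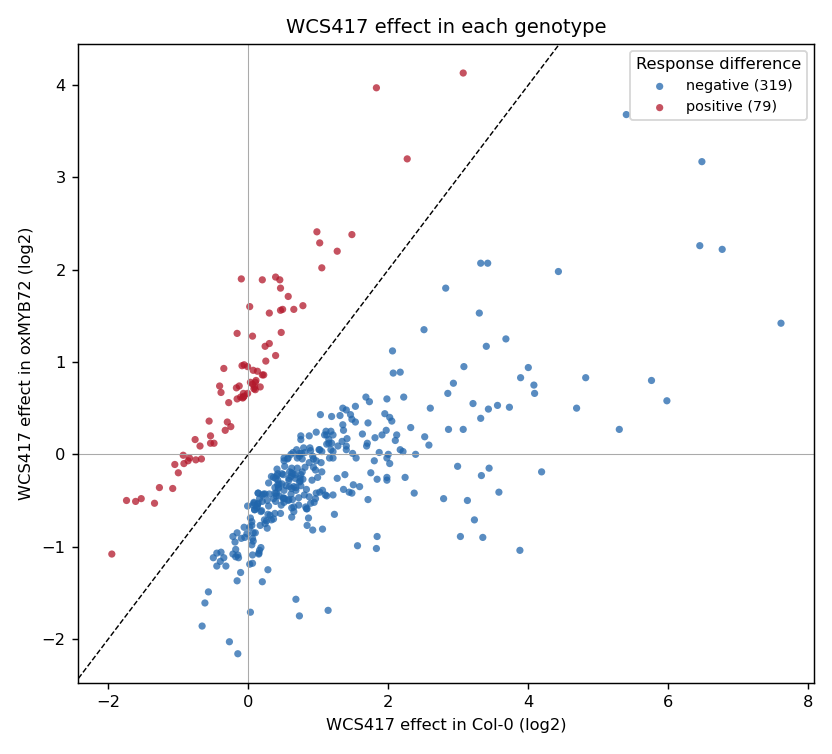
WCS417 effect in Col-0 (horizontal axis) against that in oxMYB72 (vertical axis), both as log2 differences of group means, for the 398 probe sets with a called response difference. Each point is a probe set, the dashed line marks equal effects, and the 319 blue points below it outnumber the 79 red points above it.

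A response can differ because untreated roots differ, because colonized roots differ, or both. Each of the 398 was therefore compared between oxMYB72 and Col-0 without bacteria (7.41% of all probe sets called, 3.83% higher and 3.58% lower in oxMYB72) and with them (4.26% called, 2.02% higher and 2.24% lower). The response difference is exactly the colonized minus the untreated difference and shares its arrays, so these classes describe the calls and do not test them. Among the 319 negative differences, 192 (60.2%) had a higher untreated level in oxMYB72 and 159 (49.8%) a lower colonized level. A level is said to differ here only where it was called, and a missing call does not show equal levels. AT1G26390, 0.9 higher in untreated oxMYB72 without a call, counts as colonized alone. AT5G42830, 0.42 higher in colonized oxMYB72 without a call, counts as untreated alone. In 114 the colonized level alone was called, and all were lower in oxMYB72. In 96 the untreated level alone was called, and all were higher. In 57 oxMYB72 was higher in both states, in 39 it was higher untreated and lower colonized, in 6 it was lower in both, and in 7 neither level was called. Among the 79 positive differences, 46 differed in the untreated level alone, all lower in oxMYB72, and 19 in the colonized level alone, all higher. Of the rest, 7 were lower in both states, 2 were lower untreated and higher colonized, 1 was higher in both and 4 had neither call. In both directions together the untreated level alone differed in 142 and the colonized level alone in 133, an order that depended on the setting. It was reversed without oxMYB72 control replicate 2 (79 and 112) or 1, without Col-0 WCS417 replicate 1 and without any 1 Col-0 control array. The same held where a difference of at least 1 was required (41 and 89), at an adjusted p under 0.01 (68 and 88) and with quantile normalization again (136 and 137).

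**Figure D2:**
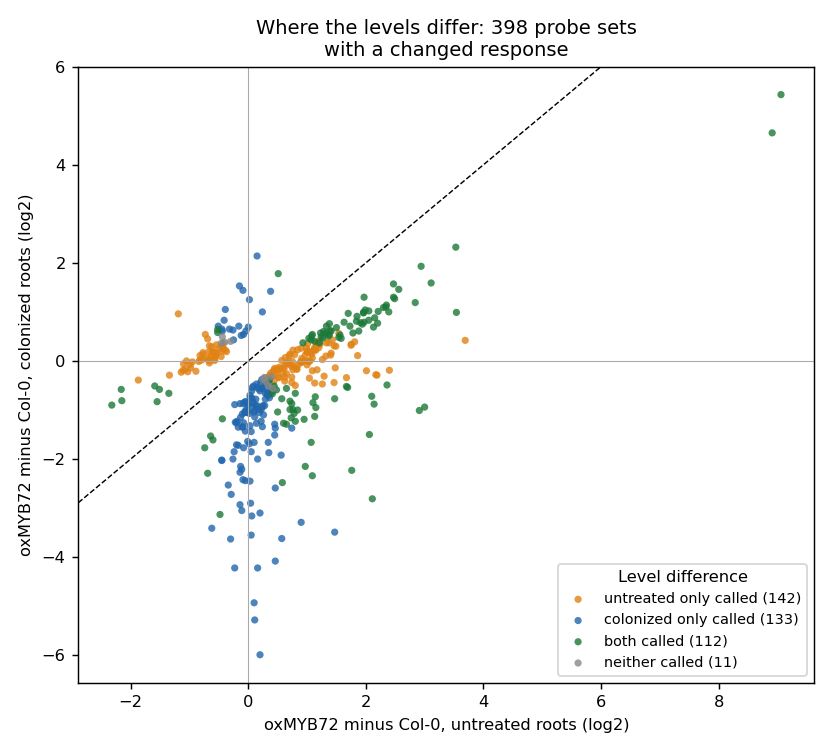
Difference between oxMYB72 and Col-0 in untreated roots (horizontal axis) and in colonized roots (vertical axis), in log2 units, for the 398 called probe sets. Points below the dashed line of equal differences have a negative response difference. Colours give which level was called. The 133 colonized-only points, shown in blue, had no called untreated difference, though some lie away from 0 on the horizontal axis, as AT1G26390 at 0.9.

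Genes whose colonized level alone was lower mostly rose in Col-0 and did so less or without a call in oxMYB72. Their median effect of WCS417 was 1.32 in Col-0 and 0.07 in oxMYB72, and 76 of the 114 rose in Col-0 with no call in oxMYB72. AT3G24510, which encodes a defensin-like protein, stood at 3.23, 3.02 and 3.10 in untreated and 8.45, 8.27 and 8.53 in colonized Col-0. In oxMYB72 it stood at 3.31, 3.35 and 3.00 untreated and 3.25, 3.99 and 3.22 colonized. Every colonized Col-0 array thus lay far above every other array of these genotypes. The response difference was -5.03 ± 0.25 (adjusted p = 1.19e-10).

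Genes for PIP peptides, small secreted peptides that are induced by microbial patterns and amplify immune signalling, rose in Col-0 and had no called effect in oxMYB72. AT4G37290, for PIP2, went from 4.39, 4.65 and 4.30 to 8.41, 8.96 and 8.55 in Col-0. The same gene stood at 4.68, 4.44 and 4.70 in untreated and at 4.23, 4.53 and 4.50 in colonized oxMYB72, groups that overlap. Its response difference was -4.38 ± 0.28 (adjusted p = 2.89e-09). AT2G23270, for PIP3, had a response difference of -3.22 ± 0.32, rising by 3.73 in Col-0, against an effect of 0.51 in oxMYB72 that was not called. AT4G28460, for PIP1, rose by 3.43 in Col-0 against an uncalled 0.49 in oxMYB72, a difference of -2.94 ± 0.44.

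Berberine bridge enzyme-like oxidases, enzymes that oxidize carbohydrates and indole compounds, had the most negative median of the lists examined. Lists were matched by gene symbol, synonym or listed locus and do not hold every measured member of a family. They were chosen with earlier results of these data known, so counts of called members describe the lists and do not test families. Of the 5 measured members of the berberine list, AT1G26380 to AT1G26420, 4 had a negative difference and none a positive one. Among all probe sets 1.4% were negative and 0.347% positive. The median response difference of the list was -4.19 against 0.04 over all probe sets. AT1G26380 stood at 4.18, 3.55 and 3.88 in untreated and 10.42, 10.83 and 10.67 in colonized Col-0. Untreated oxMYB72 had levels of 4.03, 4.28 and 4.68, and colonized oxMYB72 7.22, 6.91 and 5.54. It therefore rose in oxMYB72 too, by 2.22 against 6.77, and the colonized groups did not overlap, as in 17.6% of all probe sets. The response difference was -4.55 ± 0.78 (adjusted p = 0.00137), and -4.04 without oxMYB72 WCS417 replicate 3, the lowest of its group.

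The neighbouring gene AT1G26390 rose by 2.26 in oxMYB72 against 6.45 in Col-0. AT1G26410 rose by 4.69 in Col-0, and its effect of 0.5 in oxMYB72 was not called. AT1G26400, between them, stayed between 2.79 and 3.46 in all 12 arrays and was not called (-0.11 ± 0.17). A family member elsewhere on the chromosome, AT1G30700, is not in the list and had a called difference of -0.56 ± 0.14 (adjusted p = 0.0351). Other genes with a lower colonized level alone included AT1G26240, for an extensin-like wall protein, which rose by 4 in Col-0 and 0.94 in oxMYB72. The peroxidase gene AT5G06730 rose by 2.85 and 0.66. Prx37, another class III peroxidase, rose by 1.35 in Col-0 with an uncalled 0.32 in oxMYB72. UGT84B1, an auxin glucosyltransferase, rose by 1.21 in Col-0 and was at 0.03 in oxMYB72.

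**Figure D3:**
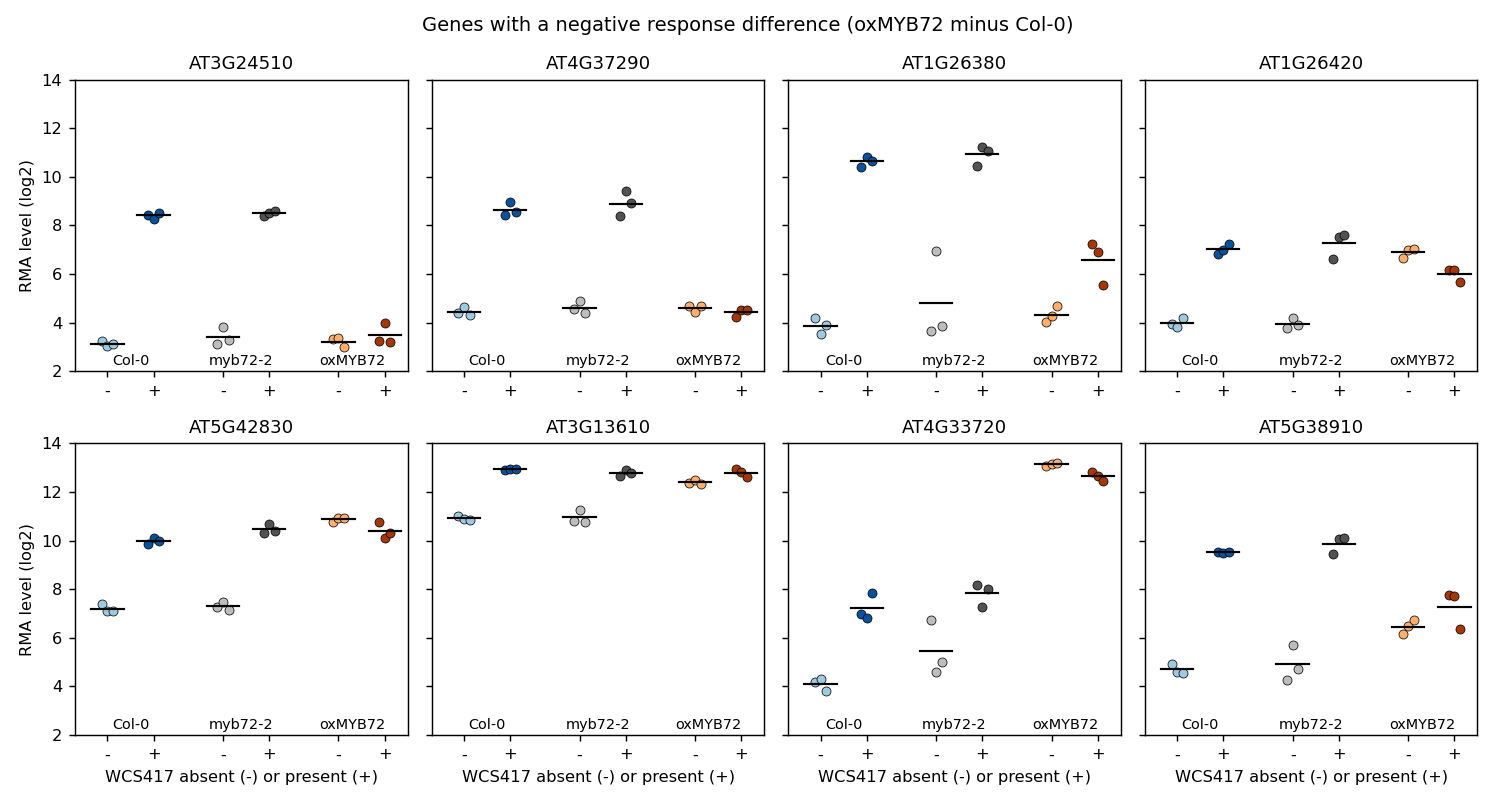
RMA level (log2, vertical axis) of 8 genes with a negative response difference, in every array of the 3 genotypes without (-) and with (+) WCS417. Points are arrays and bars are group means of 3; AT3G24510 stays between 3.00 and 3.99 in oxMYB72, whereas AT4G33720 is above 12 there in both states.

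Genes of the coumarin pathway belonged to the other kind, with a raised untreated level. Of 5 measured members of the coumarin list, 4 had a negative difference and none a positive one (median -0.89), and 4 were higher in untreated oxMYB72. The shares over all probe sets were 1.4% negative, 0.347% positive and 3.83% higher in untreated oxMYB72. AT3G13610, for feruloyl-CoA hydroxylase, the enzyme that opens the route to scopoletin, stood at 11.01, 10.89 and 10.85 in untreated and 12.92, 12.96 and 12.93 in colonized Col-0. In oxMYB72 it stood at 12.36, 12.50 and 12.32 untreated and 12.94, 12.82 and 12.63 colonized. The untreated groups did not overlap, as in 26.9% of all probe sets, and the colonized groups overlapped. The response difference of -1.62 ± 0.17 (adjusted p = 2.81e-06) was thus made of an untreated difference of 1.48 and a colonized one of -0.14 that was not called.

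AT3G12900, for scopoletin 8-hydroxylase, rose in both genotypes, by 5.4 in Col-0 and 3.68 in oxMYB72, from an untreated level that was higher by 1.26 in oxMYB72. Its response difference was -1.72 ± 0.29, and the colonized difference of -0.47 was not called. AT1G28680, for coumarin synthase, was higher in oxMYB72 in both states, by 1.13 and 0.4 (response difference -0.73 ± 0.16). It lost its call without Col-0 control replicates 2 or 3 or oxMYB72 control replicate 2. HCT, a hydroxycinnamoyltransferase of phenylpropanoid synthesis, was higher by 2.47 untreated and 1.57 colonized. It rose by 0.44 in Col-0 and fell by 0.45 in oxMYB72, where 9.09% of all probe sets fell.

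BGLU42 was the coumarin list member with no call. It stood at 7.39, 7.52 and 7.30 in untreated and 9.72, 9.39 and 9.61 in colonized Col-0. In oxMYB72 it stood at 7.31, 7.16 and 7.28 untreated and 9.56, 9.86 and 9.38 colonized, and the groups overlapped in both states. Its response difference was 0.18 ± 0.17 (adjusted p = 0.906), whereas that of myb72-2 against Col-0 was -1.52.

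A few genes of aromatic amino acid synthesis are given as single examples, chosen because of their values and from no fixed list. AT1G22410, for a DAHP synthase at the entry of the shikimate pathway, stood at 11.41, 11.37 and 11.17 in untreated Col-0 and 13.04, 13.17 and 13.08 in untreated oxMYB72. Colonized levels were 12.16, 12.16 and 12.13 in Col-0 and 12.71, 12.68 and 12.76 in oxMYB72, so that oxMYB72 was higher in every array of both states. With WCS417 it rose by 0.83 in Col-0 and fell by 0.38 in oxMYB72 (response difference -1.21 ± 0.14). AT5G66120, for a dehydroquinate synthase of the same pathway, was higher in oxMYB72 by 1.99 untreated and 1.04 colonized, with a response difference of -0.96 ± 0.16. AT2G04400, for an indole-3-glycerol phosphate synthase of tryptophan synthesis, was higher untreated by 0.74 and had a response difference of -1.18 ± 0.21.

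AT5G42830, for a BAHD acyltransferase, an enzyme family that esterifies phenolics and other products, showed the largest untreated-only difference among named genes with a negative response difference. It stood at 7.39, 7.08 and 7.08 in untreated and 9.85, 10.10 and 9.98 in colonized Col-0, and at 10.77, 10.94 and 10.91 in untreated and 10.77, 10.12 and 10.30 in colonized oxMYB72. Untreated oxMYB72 thus lay above colonized Col-0. The gene rose by 2.79 in Col-0 and fell by 0.48 in oxMYB72, a response difference of -3.27 ± 0.21 (adjusted p = 2.89e-09). Of the 3 measured genes of the BAHD list 2 had a negative difference, the other being HCT, against 1.4% of all probe sets. AT2G25150 was not called (-0.06 ± 0.39). All 3 were entered in the list individually, with earlier results of these data known, so the count is no result about the family. AT5G53990, for a UDP-glycosyltransferase, was higher untreated by 2.19 (response difference -2.49 ± 0.22). AT3G60270, for a copper-binding cupredoxin, was higher untreated by 2.17 and rose by 1.98 in oxMYB72 against 4.43 in Col-0.

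The list of pathogenesis-related proteins and chitinases had 1 member with a negative and 1 with a positive response difference in 7, and its untreated level was higher in oxMYB72 in 1 and lower in 2. Among all probe sets 1.4% were negative and 0.347% positive, and 3.83% were higher and 3.58% lower untreated. Counts this small give no result about the family. AT4G33720, which is not in that list and encodes a pathogenesis-related protein of the CAP family, had the largest untreated difference of the named genes, 9.06. It stood at 4.17, 4.28 and 3.80 in untreated and 6.98, 6.79 and 7.85 in colonized Col-0, and at 13.08, 13.14 and 13.21 in untreated and 12.84, 12.65 and 12.43 in colonized oxMYB72. It rose by 3.13 in Col-0, and its effect of -0.5 in oxMYB72 was not called (response difference -3.63 ± 0.52, adjusted p = 0.00014). Chosen after their values were seen, OSM34, an osmotin, was higher untreated by 1.81 and AT4G16260, a beta-1,3-glucanase, by 2.01. Both rose in Col-0 and fell in oxMYB72, with response differences of -1.42 ± 0.16 and -2.2 ± 0.16.

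In the 39 probe sets that were higher in untreated and lower in colonized oxMYB72, the median effect was 1.83 in Col-0 and -0.28 in oxMYB72. AT1G26420, a further berberine bridge enzyme-like gene, stood at 3.96, 3.82 and 4.17 in untreated and 6.81, 6.98 and 7.25 in colonized Col-0. In oxMYB72 it stood at 6.67, 7 and 7.01 untreated and 6.16, 6.15 and 5.69 colonized. It thus rose by 3.03 in Col-0 and fell by 0.89 in oxMYB72 (response difference -3.92 ± 0.29, adjusted p = 1.13e-08). AT5G38910, for a germin-like protein of the cell wall, was higher untreated by 1.76 and differed by -2.23 in colonized roots. Its response difference was -3.99 ± 0.44, and -3.53 without oxMYB72 WCS417 replicate 3, which stood at 6.36 beside 7.74 and 7.72. Its neighbour AT5G38900, named as the adjacent gene after its values were seen, had a response difference of -3.03 ± 0.25.

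AT3G18250, for a putative membrane lipoprotein, was higher untreated by 2.06 and differed by -1.5 when colonized. The chitinase gene CHI rose by 3.08 in Col-0 and 0.95 in oxMYB72, from an untreated level higher by 0.95. CYP71B6, a cytochrome P450 of indole metabolism, rose by 1.36 in Col-0 with an uncalled effect of -0.38 in oxMYB72. It was the only 1 of 24 measured P450 probe sets of the list with a call, against 1.75% of all probe sets. That count gives no result about the family. The lectin gene AT3G16530, chosen after its values were seen, rose by 1.84 in Col-0 and fell by 0.89 in oxMYB72.

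Immune signalling genes had calls in the negative direction only. Of 14 measured members of the list 3 had a negative difference and none a positive one (median -0.21). Over all probe sets the shares were 1.4% negative and 0.347% positive. All 3 called members were higher in untreated oxMYB72. AT1G51890, for a leucine-rich repeat receptor kinase, was higher there by 1.32, rose by 0.65 in Col-0 and fell by 0.57 in oxMYB72 (response difference -1.22 ± 0.2). BIK1, a kinase acting just below pattern receptors, was higher by 1.01 and fell by 0.53 in oxMYB72, with an uncalled 0.14 in Col-0 (response difference -0.67 ± 0.15). PUB24, a ubiquitin ligase that dampens such signalling, was higher by 0.59 and fell by 0.56 in oxMYB72, with an uncalled 0.29 in Col-0 (-0.85 ± 0.22). BIK1 lost its call without replicate 2 of any of the 4 groups, and PUB24 without any of 9 arrays. WRKY53, a transcription factor of immunity, rose in both genotypes, by 1.46 and 1.16, and was not called (-0.3 ± 0.2).

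In the 4 named genes with the largest positive response differences the colonized level alone was higher. AT4G33710, a CAP family gene next to AT4G33720, stood between 2.93 and 3.66 in Col-0 and untreated oxMYB72 and at 6.07, 6.04 and 4.06 in colonized oxMYB72. Its response difference was 1.99 ± 0.45 (adjusted p = 0.0202), and 1.65 or 1.67 with no call without oxMYB72 WCS417 replicates 1 or 2. Without replicate 3 it was 2.66, and the call was lost in 8 of the 17 alternatives run for this gene. EXPB2, a beta-expansin that loosens cell walls, stood at 5.84, 5.84 and 5.16 in untreated and 5.87, 5.90 and 5.67 in colonized Col-0. The levels in oxMYB72 were 5.23, 5.67 and 5.47 untreated and 7.57, 7.45 and 7.02 colonized. Colonized oxMYB72 alone stood apart, with a response difference of 1.69 ± 0.3 (adjusted p = 0.00188).

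Low-oxygen response genes were next. AT5G10040 stood at 3.54, 3.13 and 3.10 in untreated and 5.52, 4.90 and 5.12 in colonized oxMYB72, against 3.67, 3.41 and 4.13 in colonized Col-0. AT4G10270, annotated as wound-responsive, stood at 4.12, 4.49 and 4.22 and then at 6.35, 6.23 and 5.93, against 4.97, 5.02 and 5.36. Colonized oxMYB72 was thus above colonized Col-0 in every array, and the response differences were 1.53 ± 0.35 and 1.44 ± 0.24. Of the 4 measured hypoxia genes these 2 were called, against 0.347% positive calls over all probe sets. PDC2, a pyruvate decarboxylase of fermentation, was not called (-0.15 ± 0.14). Both called genes were entered in this list by locus, with earlier results of these data known. The count is therefore no result about hypoxia genes as a group. AT5G10040 lost its call without any 1 of 5 arrays, whereas AT4G10270 kept it. AT3G29970, for a B12D family protein, stood between 3.05 and 3.55 in Col-0 and untreated oxMYB72 and at 4.66, 4.82 and 4.49 in colonized oxMYB72 (response difference 1.22 ± 0.16).

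BHLH101, a transcription factor that drives iron uptake genes, stood at 5.48, 5.51 and 5.36 in untreated and 5.96, 5.62 and 6.13 in colonized Col-0, and at 5.31, 4.90 and 4.8 in untreated and 6.34, 6.85 and 6.48 in colonized oxMYB72. Its rise of 1.56 in oxMYB72 stood against an uncalled 0.46 in Col-0, a response difference of 1.1 ± 0.24 (adjusted p = 0.0152). The call was lost without replicate 2 of colonized Col-0 or of either oxMYB72 group. BHLH101 was the only 1 of 8 measured iron regulators and iron peptides with a call, against 1.75% of all probe sets. A single call gives no result about the list. AT1G47400, a small iron-responsive peptide, rose in both genotypes, by 1.83 in Col-0 and 1.52 in oxMYB72, and was not called (-0.31 ± 0.35). None of 5 measured metal transport genes was called. The largest value among them was 0.81 ± 0.22 for the manganese transporter AT3G58060 (adjusted p = 0.0659), which rose by 3.08 in Col-0 and 3.89 in oxMYB72.

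Wall remodelling genes were called in 3 of 46 measured list members, all with a positive difference (median 0.12), against 0.347% positive over all probe sets. Beside EXPB2 these were ATPMEPCRB, a pectin methylesterase, which rose by 4.13 in oxMYB72 and 3.07 in Col-0 (response difference 1.06 ± 0.25), and EXPA15, an alpha-expansin, which rose by 1.57 and 0.65 (0.93 ± 0.23). EXPA15 had an untreated difference of -0.82 and overlapped between genotypes when colonized. ATPMEPCRB lost its call without any 1 of 6 arrays and EXPA15 without any 1 of 8.

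**Figure D4:**
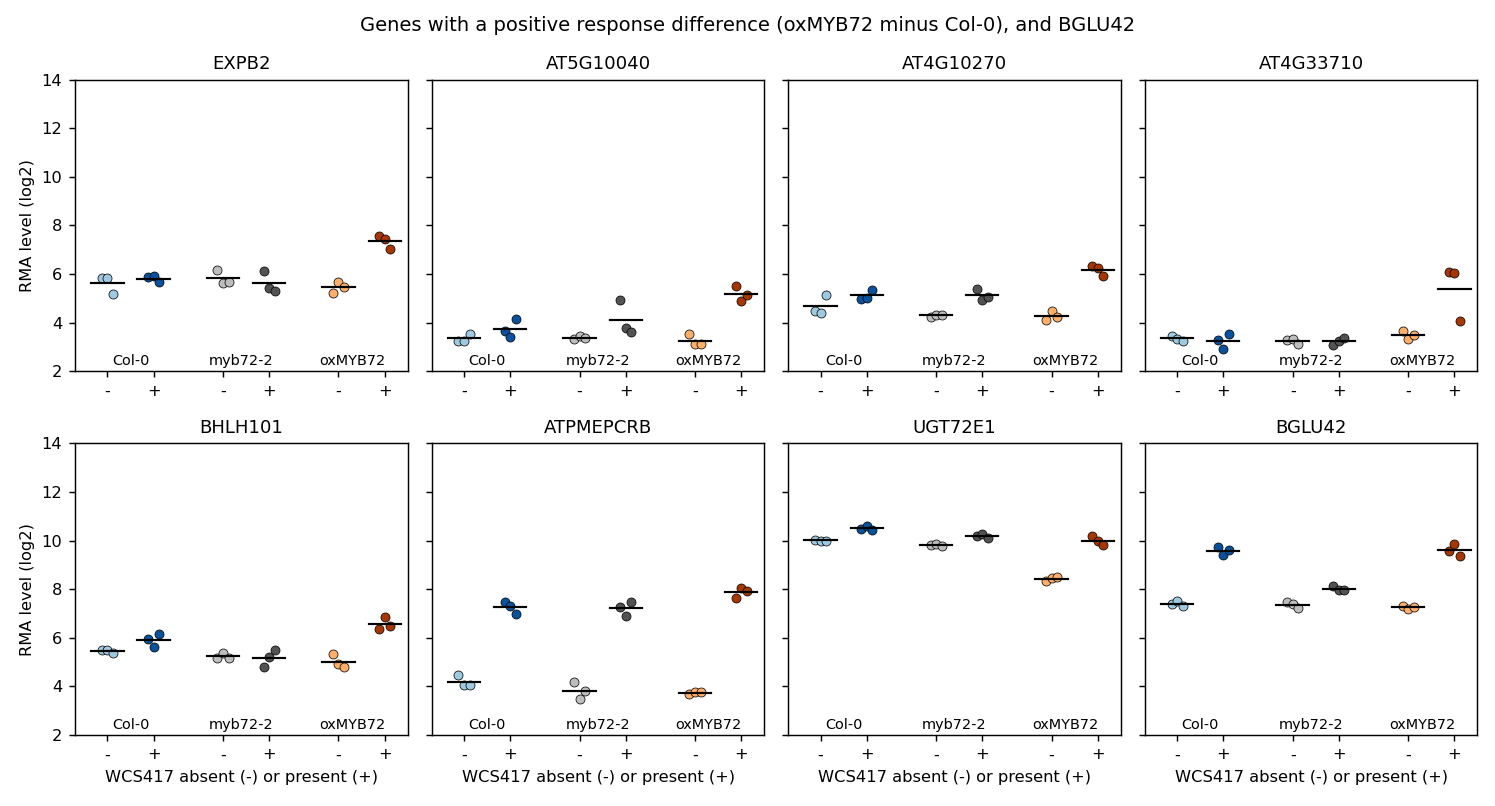
RMA level (log2, vertical axis) of 7 genes with a positive response difference and of BGLU42, in every array of the 3 genotypes without (-) and with (+) WCS417. Points are arrays and bars are group means of 3. EXPB2, AT5G10040 and AT4G10270 have their highest mean in colonized oxMYB72. For AT5G10040, colonized myb72-2 replicate 1 (4.91) lies within the range of colonized oxMYB72. UGT72E1 is lowest in untreated oxMYB72, and BGLU42 overlaps between Col-0 and oxMYB72.

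In 55 of the 79 positive differences the untreated level was lower in oxMYB72. The 46 probe sets with that call alone had a median effect of -0.15 in Col-0 and 0.66 in oxMYB72. UGT72E1, which glucosylates lignin precursor aldehydes, stood at 10.04, 9.99 and 10.00 in untreated and 10.47, 10.61 and 10.43 in colonized Col-0. Its oxMYB72 levels were 8.33, 8.46 and 8.49 untreated and 10.20, 9.99 and 9.80 colonized, lower in both states. Its response difference was 1.08 ± 0.14 (adjusted p = 5.08e-05). AT5G37450, for a leucine-rich repeat receptor kinase, had differences of -2.32 untreated and -0.9 colonized and rose by 2.41 in oxMYB72 against 0.98 in Col-0. The peroxidase gene AT5G64120 rose by 3.2 in oxMYB72 and 2.27 in Col-0 to colonized levels that overlapped. AT2G01610, for a pectin methylesterase inhibitor-like protein, rose by 0.93 in oxMYB72 with an uncalled effect of -0.35 in Col-0. GSTU20, a glutathione transferase, rose by 2.02 and 1.05. The pathogenesis-related gene PR-1-LIKE rose by 1.17 in oxMYB72 with an untreated difference of -1.51. AT2G01610 lost its call without any 1 of 4 arrays, GSTU20 without any 1 of 6, and PR-1-LIKE in 12 of the 18 alternatives, among them median centring.

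Some positive differences were weaker falls. AT1G55240 fell by 1.61 in Col-0 and by 0.51 in oxMYB72, a response difference of 1.1 ± 0.14. AT1G22160 fell by 1.05 in Col-0 with an uncalled effect of -0.11 in oxMYB72. NdhS, a chloroplast NDH subunit, fell by 1.34 and 0.53, and PSAE-1, a photosystem I subunit, by 1.08 and 0.37. These were the only 2 called of 11 measured nuclear photosynthesis genes (median 0.25). Among all probe sets 0.347% had a positive call. Both genes were lower in untreated oxMYB72, as were 6 of the 11, against 3.58% of all probe sets. The mean level of the 11 lay between 6.15 and 6.27 in untreated Col-0, 5.75 and 6.02 in untreated oxMYB72, 5.46 and 5.6 in colonized Col-0 and 5.28 and 5.51 in colonized oxMYB72. How far a different share of green tissue enters these values was not tested. PSAE-1 lost its call in 14 of the 18 alternatives tried, among them median centring, and NdhS without any 1 of 5 arrays.

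The 11 probe sets with neither level called had response differences between -0.97 and 0.93. The largest named in each direction were ATGLR1.2, a glutamate receptor-like channel gene (-0.97 ± 0.25), AT5G03390 (-0.85 ± 0.22) and AT5G35735 (-0.72 ± 0.18), and, in the other direction, AT1G73120 (0.93 ± 0.23) and AT3G45680, for a nitrate transporter family protein (0.77 ± 0.19). Each of these 5 lost its call in at least 11 of the 18 alternatives.

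Effects in opposite directions, each called in its own genotype, were found for 60 of the 398 probe sets. In 57 the transcript rose in Col-0 and fell in oxMYB72, and in 3 it fell in Col-0 and rose in oxMYB72. The former had median effects of 0.8 and -0.52. AT5G53820, for a late embryogenesis abundant family protein, was of the latter kind, with effects of -0.41 and 0.74. Among the 57 was a probe set with no named gene that was far higher in oxMYB72. Its levels averaged 3.53 untreated and 6.88 colonized in Col-0, 3.64 and 3.74 in myb72-2, and 12.44 and 11.53 in oxMYB72. Its response difference was -4.26, and that of myb72-2 against Col-0 was -3.25 and called. Whether this probe set measures MYB72 itself was not tested, and it stays in the counts.

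The counts of the remaining lists stand against 1.4% negative and 0.347% positive calls over all probe sets. Glycosyltransferases and glutathione transferases had 2 negative and 2 positive differences in 61 list members, which do not include AT5G53990. UGT87A2 was among them (-0.89 ± 0.14) and fell more in oxMYB72, by 1.21, than in Col-0, by 0.32. The class III peroxidase list had 1 of each in 5 members and does not include AT5G06730. Among 12 transcription factors of the WRKY, MYB, bHLH, NAC and ERF families found by symbol only BHLH101 was called. That list leaves out other families and members without such a symbol, so it gives no count for transcription factors in general. None was called among 10 cell cycle genes, 13 auxin genes, 69 plastid-encoded genes, 5 sulfur genes, 5 flavin monooxygenases, 3 nitrate and phosphate genes or in the 1 measured hormone signalling gene. The medians of these uncalled lists lay between -0.19 and 0.26. A p above the threshold does not show that a response was equal.

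**Figure D5:**
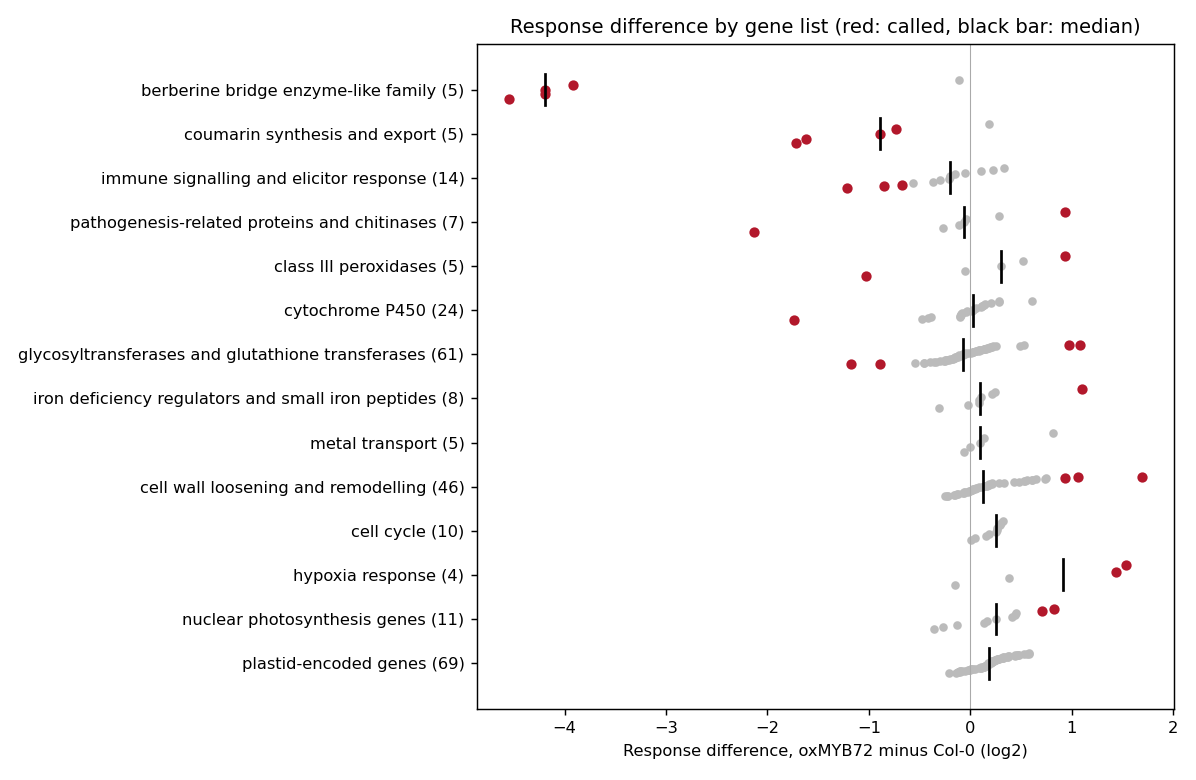
Response difference (oxMYB72 minus Col-0, log2, horizontal axis) of every measured member of 14 gene lists, with the number of members in brackets. Red points were called, grey points were not, and black bars are medians; the berberine bridge enzyme-like family has the most negative median, -4.19.

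The myb72-2 background on its own gave other values for these genes. For the 12 named genes with the most negative differences the WCS417 effect in myb72-2 lay between 2.37 and 6.1. The response difference of myb72-2 against Col-0 lay between -0.75 and 0.37 and none was called, while that of oxMYB72 against myb72-2 lay between -4.82 and -2.87 and all 12 were called. For the 12 with the most positive differences the corresponding ranges were -0.52 to 0.58, with none called, and 0.57 to 2.08, with 9 called. These comparisons share the Col-0 or the oxMYB72 arrays with the main one. Over all probe sets, 4 were called for myb72-2 against Col-0 (0.0176%) and 633 for oxMYB72 against myb72-2 (2.78%, with 1.86% lower).

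Some called genes lay side by side on the chromosomes. Among 196 called genes with a place on the nuclear chromosomes, 20 stood in 10 pairs of adjacent protein-coding genes, of 12262 measured genes in all. Of the 197 called probe sets with 1 named gene, 151 had a negative difference, and agreement between neighbours was not tested against that share. In 9 pairs both members changed in one direction, among them AT1G26380 with AT1G26390, AT1G26410 with AT1G26420, AT5G38900 with AT5G38910, and UGT84B1 with AT2G23270. Another was AT3G12900 with AT3G12910, the latter named as the adjacent gene after its values were seen. The pair AT4G33710 and AT4G33720 was the exception, with response differences of 1.99 and -3.63. Near-identical family members can cross-hybridize, which was not tested.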

How the data were processed

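Affymetrix ATH1 arrays of polyA RNA from 12 of the 18 root samples enter the contrast, and all 18 enter the fit. The authors deposited log2 expression values computed by RMA, per the submitters' processing notes, with no version given. RMA corrects background, quantile-normalizes arrays and summarizes the probes of each set; the log2 scale follows from the method and from values of 2.42 to 14.63. RMA makes arrays alike in distribution and compresses differences near the background, so folds of dim probe sets are understated.

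From these values 64 control probe sets were left out. The remaining 22746 were fitted with limma 3.58.1 in R 4.3.3, with a mean per group and no covariate. eBayes moderation, two-sided tests and Benjamini-Hochberg adjustment over all probe sets within each comparison followed, and called probe sets are those whose adjusted p was below 0.05. The fit was tested on simulated data. Groups came from the sample titles. Gene names came from the platform annotation, updated through a RefSeq table of assembly TAIR10.1 (13513 probe sets with 1 gene, 503 with several, 8730 with none).

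Named genes were the 12 largest differences in each direction among called probe sets of 1 gene, the 3 largest per class of level and direction, up to 4 called members per gene list, and BGLU42. The rule also allowed other list members and relatives of a named gene in the same family. Further names are marked as chosen after their values were seen. The contrast and the lists were chosen with earlier results of these data known. List members were found by symbol, synonym or listed locus only, so a family's other unnamed members are missing from its counts. Of 24 lists, 21 had a member found this way; those of structural wall proteins, ABC transporters and surface receptors had none, although an extensin-like gene and receptor kinase genes were measured. Figures used matplotlib 3.10.9 under Python 3.11.15.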

Additional observations from a re-analysis of the deposited data

Results flagged for a closer look

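The WCS417 response differed between oxMYB72 and Col-0 by the test of the difference itself in 398 probe sets, which is the result described above. Effects called in opposite directions in the genotypes were found for 60 probe sets, 29 of them with 1 named gene. Of these 29, 5 were chosen by the rule for named genes. The response difference was -3.92 for AT1G26420, -3.27 for AT5G42830, -1.22 for AT1G51890 and -0.89 for HCT, which rose in Col-0 and fell in oxMYB72. It was 1.16 for AT5G53820, which fell in Col-0 and rose in oxMYB72. Groups of 3 arrays are too small for a test of outlying arrays.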

How the results depend on the processing

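The count of 398 lay between 278 and 398 when each of the 12 arrays was left out, that of positive differences (79) between 34 and 85, and that of negative ones (319) between 244 and 323. By level, untreated alone (142) ranged from 79 to 157, colonized alone (133) from 103 to 134, both (112) from 83 to 101 and neither (11) from 4 to 15. The untreated comparison ranged from 1125 to 1805 and the colonized one from 733 to 944. With an adjusted p under 0.01, 245 were called, 26 of them positive, with 68 untreated alone, 88 colonized alone and 0 with neither level. Requiring a difference of at least 1 left 207, with 24 positive, 183 negative, 41 untreated alone and 0 neither. Neither level was called in 18 under median centring and in 6 with the replicate block. The replicate block gave 402 calls. Same-numbered arrays did not deviate together (3 of 18 pairs correlated above 0.1, from -0.3 to 0.22; 5 of 12 arrays matched their own number best). Quantile normalization again gave 396 calls, median centring 423, robust moderation with a variance trend 452, a fit to the 12 arrays alone 418, and removal of the 30% dimmest probe sets 389. The share of negative differences was 86.8% under median centring against 80.2%. Of the 50 called genes chosen by the rule for named genes, 32 kept the call in all the alternatives run for them, and none of the 50 changed direction. The further genes named after their values were seen were not run. AT5G10040 and AT4G33710 were among the dimmest probe sets removed. The number of arrays and the compression of dim signals by RMA limit the precision.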
